A study of Mus musculus with 4 samples.

Results

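Genes of the transforming growth factor beta (TGF-beta) and bone morphogenetic protein (BMP) pathways are described, namely Ltbp3, Fstl1, Tgfbr2, Smad3, Id3 and Atoh8. These 6 members are taken from 8131 genes with a value on at least 3 of 4 two-colour arrays, and all 6 met that minimum. They were chosen with their log2 ratios on these same arrays in view, so their own values are given as a description, with no test. Each array set RNA of Erbb2-transfected NIH3T3 cells beside RNA of NIH3T3 cells that had not been transfected; Erbb2 is a receptor tyrosine kinase gene, which the labels describe as overexpressed in the transfected line and normally expressed in the other. NIH3T3 is an established line of mouse embryonic fibroblasts. Arrays 1 and 2 had the transfected sample in the dye Cy5, whereas arrays 3 and 4 had it in Cy3. Per the series design the arrays are technical replicates, so every SD and p-value covers the spread between arrays and none covers the spread between cultures. The labels name 1 transfected line and do not say how many clones it held, nor the promoter of the transgene.

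Ligands of the TGF-beta family are secreted dimers. TGF-beta itself is stored in the matrix in a latent form, held there by latent TGF-beta binding proteins such as the product of Ltbp3. The released ligand binds a type II receptor kinase, encoded for TGF-beta by Tgfbr2, which activates a type I receptor, and that receptor phosphorylates SMAD proteins. SMAD2 and SMAD3 carry TGF-beta and activin signals and SMAD1, SMAD5 and SMAD9 carry BMP signals to the nucleus, each together with SMAD4. Id genes are classic BMP targets, and fibroblasts respond to TGF-beta by making matrix proteins.

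The upstream sequences of the members with the lowest ratios, Id3 and Atoh8, and of the member with the smallest spread over 4 arrays, Ltbp3, are shown because they let a reader look for SMAD and helix-loop-helix binding letters near the genes' starts. Each runs from 250 bases before to 50 bases after a start site in the RefSeq promoter table of build GRCm38.p6, in which all 6 members were matched by gene identifier. That site is the start of the gene in the RefSeq gene table for 5 members, and for Atoh8 it lies 203 bases inside the gene. Capitals mark CAGAC (or its reverse complement GTCTG), the short box that SMAD3 and SMAD4 can bind, and CANNTG, the E-box that basic helix-loop-helix proteins bind, searched on both strands. No base was shared between both motifs in any of the 6 windows.
Id3 chr4:136143572-136143871, plus strand: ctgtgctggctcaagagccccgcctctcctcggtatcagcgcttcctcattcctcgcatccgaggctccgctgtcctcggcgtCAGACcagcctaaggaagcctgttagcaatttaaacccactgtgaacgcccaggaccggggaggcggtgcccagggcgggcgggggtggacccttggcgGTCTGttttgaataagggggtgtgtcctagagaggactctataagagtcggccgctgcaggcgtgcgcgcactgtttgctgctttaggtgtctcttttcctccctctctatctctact
Atoh8 chr6:72235528-72235827, minus strand: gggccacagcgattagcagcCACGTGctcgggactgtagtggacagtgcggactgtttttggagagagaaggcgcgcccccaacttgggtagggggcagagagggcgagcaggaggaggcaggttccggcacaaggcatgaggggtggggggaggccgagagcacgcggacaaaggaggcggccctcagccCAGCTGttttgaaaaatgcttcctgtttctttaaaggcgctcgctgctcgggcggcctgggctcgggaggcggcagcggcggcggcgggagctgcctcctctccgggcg
Ltbp3 chr19:5740650-5740949, plus strand: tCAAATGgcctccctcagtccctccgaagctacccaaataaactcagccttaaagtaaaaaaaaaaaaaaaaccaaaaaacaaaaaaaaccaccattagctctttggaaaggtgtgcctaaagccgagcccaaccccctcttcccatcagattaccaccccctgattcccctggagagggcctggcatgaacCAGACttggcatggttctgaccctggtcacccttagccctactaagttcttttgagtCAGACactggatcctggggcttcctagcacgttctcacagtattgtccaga

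CAGAC was present in 3 of 6 member windows (Id3, Ltbp3 and Tgfbr2) and in 49.6% of 32851 windows of the same length. Id3 and Ltbp3 each held it 2 times, and 16.2% of all windows held it at least 2 times. CANNTG was present in 3 of 6 member windows (Atoh8, Tgfbr2 and Ltbp3) and in 72.3% of all windows. In Id3 the CAGAC boxes began 167 and 68 bases before the start site of the window, and the window held no E-box. In Atoh8 the E-boxes began 230 and 59 bases before the start site of the window, which is not the start of the gene there. The windows of Fstl1 and Smad3 held neither motif. These matches describe letters in the windows and say nothing of binding.

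All 6 members had a mean log2 ratio below 0 (Smad3 lay at 0.03 in the first 6000 rows alone). On the reading of the deposited values assumed here, this means a lower level in the transfected line. The direction is not stated in the sources used here. All signs would turn together if the ratios were untransfected over transfected. Signs on arrays 3 and 4 alone would turn if the authors had not already turned them for the dye swap. Across genes each of arrays 1 and 2 had Pearson's r of 0.123 to 0.149 with arrays 3 and 4 in the table used here. The row offsets were picked by the correlation of array 1 with the others, so r of array 1 is in part built in. Arrays 2 to 4 share the same offsets, and array 2 had 0.126 with array 3 and 0.123 with array 4. Whether the signs had been turned was not tested. The values are ratios and give no level in either line, and in RNA of whole cultures fewer expressing cells and less RNA per cell cannot be told apart. With 1 sample per line, Erbb2 and any other difference between the lines cannot be told apart either. Atoh8 and Id3, which encode helix-loop-helix proteins, lay furthest below 0. Ltbp3, Fstl1, Tgfbr2 and Smad3 had means between -0.75 and -0.34, against a median of -0.09 over all 8131 genes, of which 56.4% had a mean below 0. Of the 5 members with 4 arrays, 3 were below 0 on every array (Ltbp3, Fstl1 and Id3), where 13.0% of all 6327 genes with 4 arrays were. Atoh8 was below 0 on each of its 3 arrays, as were 15.9% of the 1804 genes with 3 arrays. Since the members were chosen on these ratios, nothing is read from these counts.

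**Figure D1:**
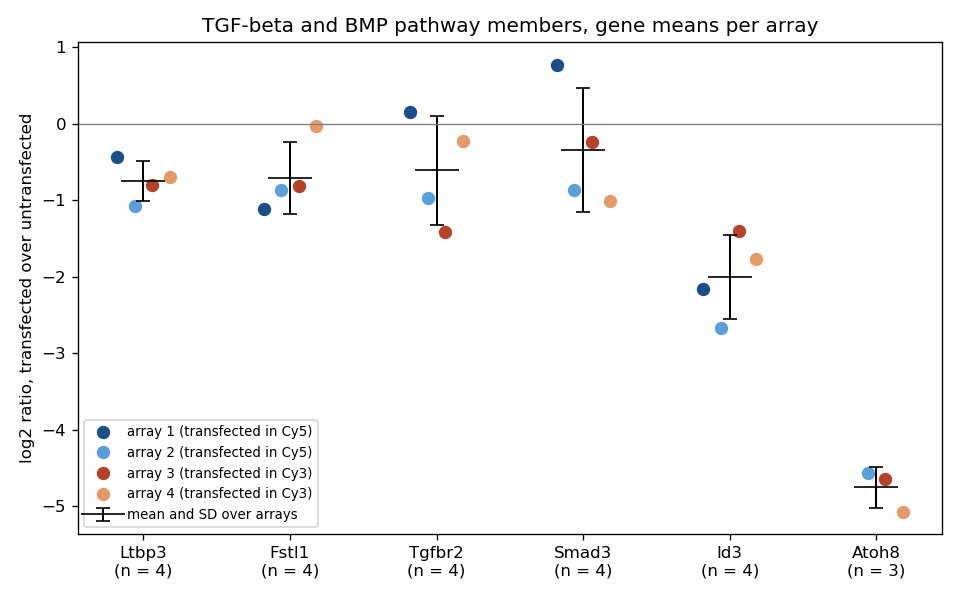
Log2 ratios of transfected over untransfected cells (vertical axis) for the 6 members, 1 point per array (probes of a gene averaged) with the mean and SD over arrays as a bar. Atoh8 sits between -5.07 and -4.56, Id3 between -2.67 and -1.40, and only Tgfbr2 and Smad3 have a point above 0, both on array 1.

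Ltbp3, the latent TGF-beta binding protein gene, had the tightest values of the members with 4 arrays. Its log2 ratios were -0.44, -1.07, -0.80 and -0.70 on arrays 1 to 4. All 4 lay below 0, and the mean was -0.75 ± 0.26 (SD, n = 4 arrays), a 1.68-fold lower level. The mean was the same in both dye orientations within rounding, at -0.76 with the transfected sample in Cy5 and -0.75 with it in Cy3. This depends on the authors' array constants: with each array set to 0 at its commonest value, a setting chosen after seeing the data, Ltbp3 had -0.96, -1.62, 0.10 and -0.42 and was above 0 on array 3. Only 6.97% of genes with 4 arrays had a smaller SD, and the median SD over those genes was 0.70. Of all genes, 15.4% had a lower mean. Ltbp3 was read from 1 probe, among the first 6000 rows, where all columns of the table line up as deposited.

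Fstl1 encodes a secreted glycoprotein of the follistatin family that binds BMP4 and restrains its signal in the mouse lung. Its gene values were -1.11, -0.87, -0.81 and -0.03 on arrays 1 to 4, with a mean of -0.71 ± 0.47 (SD, n = 4 arrays). All were below 0, but array 4 lay close to it. Its 2 probes differed. The probe in the first rows had -1.46, -0.87, -0.81 and -0.67, a mean of -0.95, while the probe in the last rows had a value on array 1 (-0.77) and array 4 (0.61) only. The value near 0 on array 4 averages a probe below 0 and a probe above 0. The value above 0 rests on the row offset inferred for arrays 2 to 4. As deposited, in the same row, that probe had -0.77, -0.22, -0.57 and -0.07, below 0 on every array, and the gene mean would be -0.68.

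Tgfbr2, the type II receptor gene, had gene values of 0.15, -0.97, -1.41 and -0.22 on arrays 1 to 4. Its mean was -0.61 ± 0.71 (SD, n = 4 arrays), so the SD exceeded the size of the mean, and array 1 lay above 0. The probe in the first rows was below 0 on every array, at -2.35, -0.62, -1.03 and -0.74, with a mean of -1.19. The probe in the middle rows had 2.64, -1.33, -1.79 and 0.31 and a mean of -0.04. On array 1, which no offset touches, these probes of the same gene had opposite signs. As deposited, in the same row, arrays 2 to 4 of this second probe had -3.40, -0.90 and -1.31, and the gene mean would be -0.96. The value of 0.31 on array 4 was held by 59 probes of that array, where a typical (median) value was shared by 11 probes.

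Smad3, the SMAD that carries TGF-beta and activin signals, had no steady direction. Its gene values were 0.77, -0.87, -0.24 and -1.01 on arrays 1 to 4, with a mean of -0.34 ± 0.81 (SD, n = 4 arrays). Array 1 lay above 0 and the other 3 below it, and the SD was over the size of the mean. The 3 probes disagreed among themselves. One in the first rows had 1.37 on array 1 and -3.12 on array 4 and no value elsewhere. The next, also in the first rows, had 1.44, -1.62, 1.91 and -0.03 and a mean of 0.42. The probe in the middle rows had -0.51, -0.11, -2.39 and 0.11 and a mean of -0.73, and as deposited its arrays 2 to 4 had -1.93, -1.44 and 0.02. With the first 6000 rows alone the mean of Smad3 was 0.03, which is above 0. Without array 1 all 6 members were below 0 on every array with a value. Nothing is read from this count: the members were chosen on these ratios, and the share of all genes was not counted without array 1. The means of Tgfbr2 and Smad3 without array 1 were -0.87 and -0.71. Other arrays moved these means towards 0 when left out. Smad3 had -0.16 without array 2 and -0.12 without array 4, and Tgfbr2 had -0.35 without array 3.

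**Figure D2:**
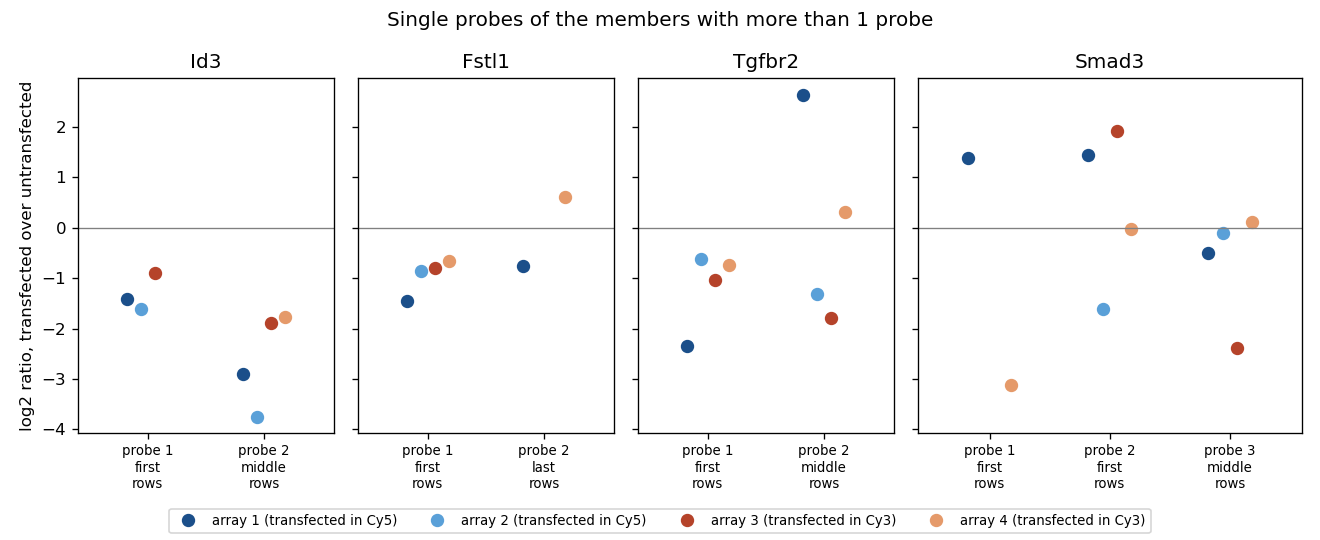
Log2 ratios of transfected over untransfected cells (vertical axis) for each probe of the 4 members with more than 1 probe, 1 point per array; the axis text gives the part of the table the probe lies in. Both probes of Id3 lie below 0 on every array with a value, whereas the probes of Fstl1, Tgfbr2 and Smad3 include values on both sides of 0.

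Id3 encodes an inhibitor of DNA binding, a helix-loop-helix protein without a basic region that pairs with basic helix-loop-helix factors and keeps them off DNA. Its gene values were -2.16, -2.67, -1.40 and -1.77 on arrays 1 to 4. All 4 were below -1, the mean was -2.0 ± 0.55 (SD, n = 4 arrays), a 4.01-fold lower level, and 1.32% of all genes had a lower mean. Its 2 probes lie far apart in the table and both were below 0 wherever they had a value, 7 of 7 values. The probe in the first rows had -1.42, -1.60 and -0.90 on arrays 1 to 3, with a mean of -1.31. The probe in the middle rows had -2.91, -3.75, -1.90 and -1.77, with a mean of -2.58. For this second probe the values of arrays 2 to 4 were read 3 rows higher than that of array 1. As deposited, in the same row, arrays 2 to 4 had 0.78, 0.98 and 0.92, and the gene mean would be -0.40. The size for Id3, and its being below 0 on every array, thus rest in part on the row offset, while its first probe does not. On array 4, where only the second probe had a value, Id3 would be above 0 as deposited.

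On array 3 both Id3 probes took common values. The first had the commonest value of that array, held by 143 probes, and the second a value 1 unit lower, held by 75 probes, where a typical (median) value was shared by 12 probes. The dye orientations gave means of -2.42 with the transfected sample in Cy5 and -1.59 with it in Cy3.

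Atoh8 encodes a basic helix-loop-helix transcription factor that has been described as a BMP-SMAD target in hepatic and endothelial cells. It had no value on array 1 and -4.56, -4.64 and -5.07 on arrays 2 to 4. The 3 values lay within 0.51 of each other and none overlapped those of another member. The mean was -4.75 ± 0.27 (SD, n = 3 arrays), a 27.0-fold lower level, and 4 of the 8131 genes had a lower mean. Array 2 gave -4.56 with the transfected sample in Cy5, and arrays 3 and 4 averaged -4.85 with it in Cy3. Atoh8 was read from 1 probe in the first rows, so no other probe checks its name, and it rests on fewer arrays than the other members.

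**Figure D3:**
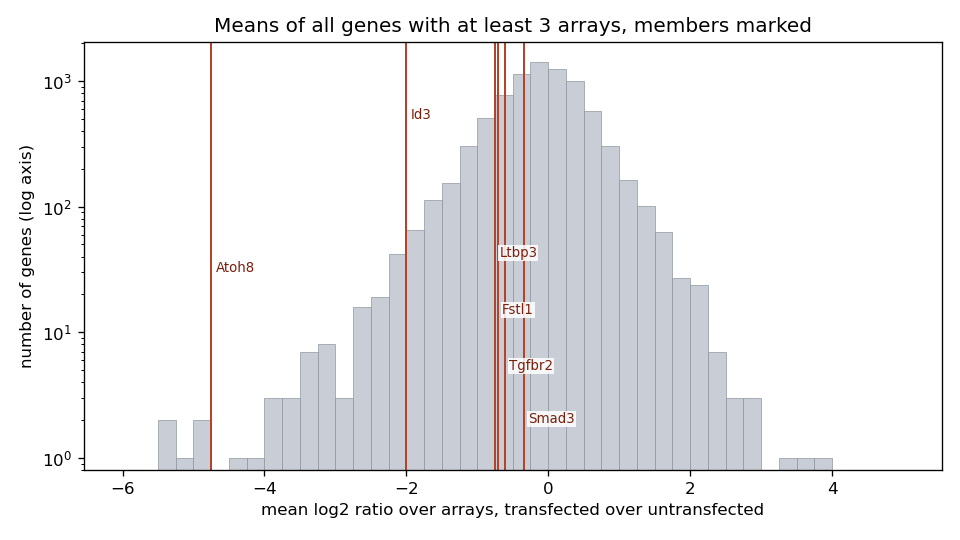
Number of genes (vertical log axis) by mean log2 ratio of transfected over untransfected cells (horizontal axis, bins of 0.25) for the 8131 genes with at least 3 arrays; lines mark the members. Atoh8 at -4.75 and Id3 at -2.0 lie in the lower tail, and the other 4 members lie between -0.75 and -0.34, within the bulk of genes.

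In order from lowest to highest mean, the members ran Atoh8, Id3, Ltbp3, Fstl1, Tgfbr2 and Smad3. The values of Atoh8 and Id3 did not overlap, nor did those of Id3 and Ltbp3. Neighbours from Ltbp3 to Smad3 overlapped and differed by less than the SD of either. Over single probes, the member values above 0 came from Smad3 (4 of 10), Tgfbr2 (2 of 8) and Fstl1 (1 of 6). The share over all probes was not counted, and the members were chosen on these ratios, so nothing is read from these counts.

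For the members, the genes with the nearest values over the same arrays, by Euclidean distance of log2 ratios, were looked up as a description. Over 4 arrays Id3 was closest to Cd34, a cell surface sialomucin gene (distance 0.49), and Ptprs, a receptor phosphatase gene (0.74), against a median distance of 4.28 over 6326 genes. Cd34 had -2.19, -2.42, -1.80 and -1.67. Over 3 arrays Atoh8 was closest to Rgs2, a regulator of G protein signalling (0.93), and Timp3, a metalloproteinase inhibitor gene (1.46), against a median of 8.12 over 6419 genes. On array 1, where Atoh8 had no value, Rgs2 had -2.34 and Timp3 -2.27. The closest genes to the other members were Mrps23 and Kif13a for Ltbp3 (0.20 and 0.24), Tubb2a and Gnmt for Fstl1 (0.20 and 0.26), Nif3l1 and Ncoa1 for Tgfbr2 (0.30 and 0.32) and Dnajc4 and Adgrl3 for Smad3 (0.16 and 0.31). These members lie where genes are dense, so close neighbours are common there.

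None of the other pathway genes passed the test, and their means lay on both sides of 0. Of 124 other pathway genes listed by role, 66 had a named probe and 49 had a value on at least 3 arrays. Limma, with Benjamini-Hochberg adjustment over all genes, called 0 of the 49 (smallest adjusted p = 0.438), as it called 0 of all 8131 genes (0.0%, smallest adjusted p = 0.23). At an unadjusted limma p under 0.05 there were 2 lower (Inhba and Ccn2) and 1 higher (Tsc22d1) pathway genes, where the same level took in 6.46% of all genes on the lower and 3.21% on the higher side. In both directions together this was 6.12% of the pathway genes and 9.67% of all genes. The median of the 49 means was -0.11, against -0.09 over all genes, and 31 were below and 18 above 0. Of the 31 with 4 arrays, 5 (16.1%) were below 0 on every array and 3 above 0 on every array, where 13.0% and 9.58% of all genes were. Of the 18 with 3 arrays, 7 (38.9%) were below 0 on each (Inhba, Ltbp2, Nbl1, Rgma, Hey1, Msx1 and Snai2), where 15.9% of all genes with 3 arrays were. The lists were chosen with earlier results of these data known, so these shares are a description and were not tested.

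Among ligands, 8 of 31 were measured, with a median of -0.23. Inhba, which encodes the subunit of activin A, had -3.56, -2.62 and -1.58 on arrays 1, 3 and 4 and no value on array 2. Its mean was -2.59 ± 0.99 (SD, n = 3 arrays). The limma fit, which has a term for dye orientation, gave -2.83 with an adjusted p = 0.438. Bmp7 was below 0 on all 4 arrays (-0.97, -0.08, -1.59 and -0.20). Tgfb2 had -0.19 ± 0.38, Gdf3 -0.27 ± 2.02 and Lefty1, a nodal antagonist, 0.20 ± 2.45, all with SDs over the size of their means.

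Of the other genes of TGF-beta latency, 4 of 11 were measured, all with means below 0 and a median of -0.57. Fbn2, which encodes a microfibril protein that LTBPs dock on, had -0.73 ± 0.66, with array 3 above 0 at 0.18. Ltbp2, another latent TGF-beta binding protein gene, had -0.05, -1.19 and -1.49 on arrays 2 to 4 and no value on array 1, with a mean of -0.91, lower than that of Ltbp3. Ltbp4, a further gene of that family, had -0.04 ± 0.31, with values of 0.13, -0.36, 0.30 and -0.24. Ltbp3 at -0.75 lay below it on every array (-0.44, -1.07, -0.80 and -0.70), which is a description of a member picked for its ratio. Antagonists had 4 of 17 measured, and Chrdl1, a BMP antagonist gene, had 0.03 ± 0.64.

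Receptors had 6 of 17 measured and 0 of the 3 with 4 arrays were below 0 on each, where 13.0% of all genes with 4 arrays were. The largest means were those of receptors with 3 arrays. Eng had -1.76 ± 2.35, Rgma -1.38 ± 1.83 and Acvr1b 1.09 ± 2.03, and of these only Rgma was below 0 on each of its arrays. Tgfbr3, the betaglycan co-receptor gene, had -0.60, 0.08, 1.12 and 0.67, a mean of 0.32 ± 0.74. Its sign depends on how the rows were read, since limma fitted -1.68 for Tgfbr3 with all rows as deposited. The BMP type I receptor gene Bmpr1a spread from -4.08 to 4.25 with a mean of -0.11 ± 3.46, and Amhr2, the receptor gene for anti-Müllerian hormone, had -0.08 ± 0.31. Of SMADs and their regulators, 15 of 25 were measured, with a median of -0.13 and 2 of 12 with 4 arrays below 0 on each. Their means were below 0 for 10 genes and above 0 for 5. The SMAD genes among them had means above 0, with Smad1 at 0.06 ± 0.39, Smad5 at 0.11 ± 0.97 and Smad4 at 2.15 ± 3.02 (3 arrays). Usp15, a deubiquitinase gene that acts on the TGF-beta receptor and SMADs, had -0.32, -1.0, -0.44 and -0.47 and a mean of -0.56 ± 0.30. The corepressor genes Tgif2 and Tgif1 had -0.93 ± 1.65 and -0.29 ± 2.24, and Map3k7, which encodes the kinase TAK1, had -0.51 ± 0.67.

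Target genes went both ways. Of 23 listed, 12 were measured, with 6 means below and 6 above 0. The sizes were not balanced. Hey1, Snai2 and Msx1, with 3 arrays each, had means of -2.25, -1.46 and -1.26. Above 0, Cdkn1a, Acta2 and Twist1 had means of only 0.21, 0.20 and 0.13. Ccn2, a TGF-beta target that encodes connective tissue growth factor, had -3.06, -1.58, -0.09 and -2.15 and a mean of -1.72 ± 1.24 (SD, n = 4 arrays). It was below 0 on every array but close to it on array 3 (limma, adjusted p = 0.483). Tsc22d1, first found as a TGF-beta-stimulated clone, had 0.65, 0.88, 1.89 and 1.60, all above 0, with a mean of 1.25 ± 0.58 (limma, adjusted p = 0.446). Its values on arrays 2 to 4 rest on the inferred row offset. With all rows as deposited, Tsc22d1 was not among the pathway genes at an unadjusted limma p under 0.05. Id4, a relative of Id3, was above 0 on every array, at 0.17, 0.13, 0.71 and 1.59, with a mean of 0.65 ± 0.68, and did not overlap Id3. The proto-oncogene Myc, which TGF-beta represses in epithelial cells, had 0.67 ± 1.88.

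**Figure D4:**
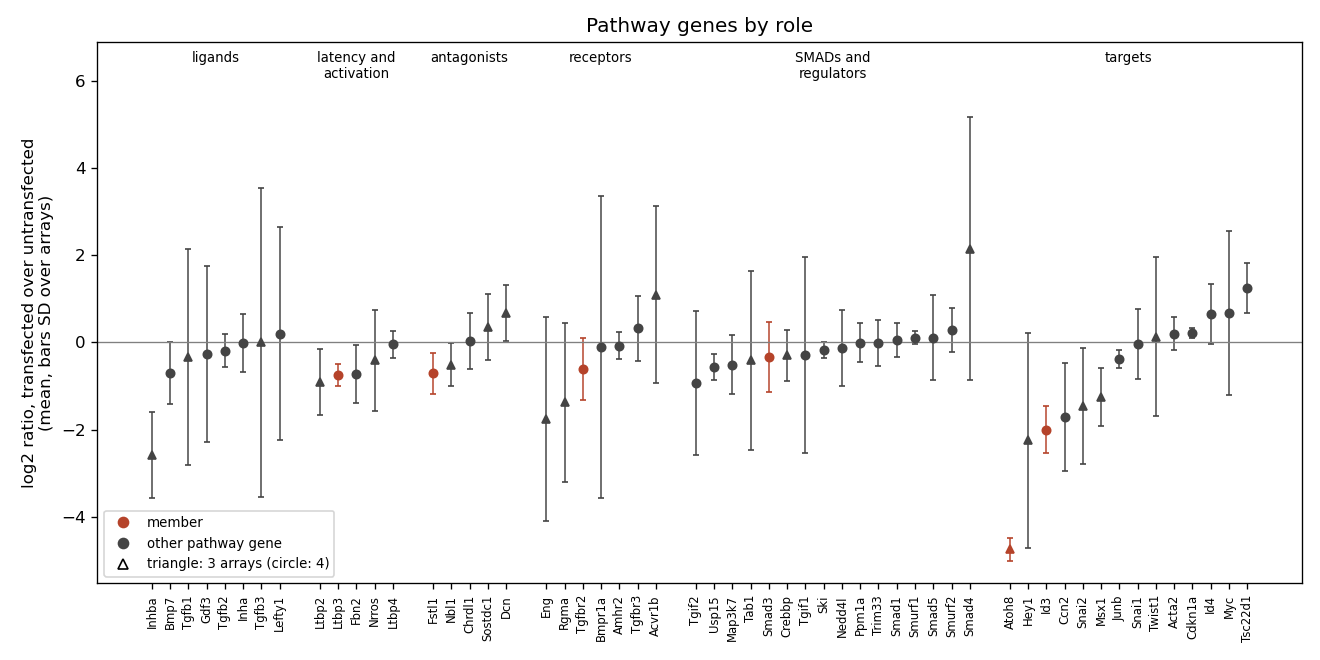
Mean log2 ratio of transfected over untransfected cells (vertical axis, bars SD over arrays) for the 6 members and the 49 other measured pathway genes, grouped by role; triangles mark genes with 3 arrays. Within the targets Atoh8, Id3, Hey1, Ccn2, Snai2 and Msx1 lie furthest below 0, and Tsc22d1 and Id4 lie above it.

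Of the table's 20355 rows, between 76.8% and 94.6% had a value per array. Pairs of arrays had Pearson's r of 0.123 to 0.202 across the 6327 genes with 4 arrays, as a description, since genes share their array and are no replicates. Erbb2 had 0 named probes, which left the transfected gene itself unchecked. Ratios do not show whether a fibroblast marker is present. Of 10 listed fibroblast markers, 8 were measured, with means from -4.91 to 0.89 and a median of 0.35. Epithelial (4 of 5 measured), endothelial (2 of 3), leukocyte (2 of 4), adipocyte (2 of 3) and muscle markers (2 of 3) had medians of -0.08, 0.20, -0.70, 0.40 and -0.59. Their part in the members' ratios was not tested.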

How the data were processed

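Gene expression in Erbb2-transfected and untransfected NIH3T3 cells was measured on 4 arrays of 2 colours, 2 per dye orientation. The values the authors deposited are read here as log2 ratios of the channels, not centred on array medians. Image analysis, background correction, normalization and direction are not given in the labels or the table, and the log2 scale was inferred from the values, whose commonest ones lie 1 unit apart. The direction assumed here, transfected over untransfected, takes the sign of swapped arrays to have been turned. The ground is the sign of the first capped ratio on each array, positive on arrays 1 and 2 but negative on the others. That is 1 value per array. Unturned ratios of a gene seen in 1 line only would also differ in sign by dye orientation. Neither the turning nor which line is the numerator is thus settled. The first 6000 rows were used as they stand; for rows 8001 to 18000 arrays 2 to 4 were read 3 rows higher, and from row 18301 4 rows higher. These offsets are stated in no source. They are inferred from the mean Spearman correlation of array 1 with arrays 2 to 4 across probes, which peaked, over offsets of 0 to 6 rows, at 0.111 without an offset in the first rows, at 0.095 with 3 rows in the middle and at 0.12 with 4 rows in the last part. They set the values of the probes of Id3, Tgfbr2, Smad3 and Fstl1 in the middle and last rows. Other pathway genes with probes in those rows, such as Tsc22d1, rest on them too. The other 2300 rows and 418 values beyond 15 either way were left out. Of 20355 probes, 14030 had 1 gene symbol, 5 several and 6320 none in the platform table; 13994 were matched to RefSeq by gene identifier, which changed 0 symbols.

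Named probes of a gene were averaged per array. Genes with at least 3 arrays were fitted with limma 3.58.1 (R 4.3.3), with a mean term and a term for dye orientation. The Benjamini-Hochberg adjusted p was set against 0.05. A run of the fit on simulated data used changes larger than most ratios here, so it says nothing of power at smaller changes. Members and lists were chosen with earlier results of these data known. The named pathway genes are those at an unadjusted p under 0.05 and, per role, the 4 with the largest absolute mean among genes with 4 arrays; for each member, the 2 nearest genes. Some others are named as relatives of a member, where a count lists them or to show the spread of a role. Alternatives covered rows, offset, centring, scaling, caps, arrays per gene, dye term, variances and leaving out each array. The number of arrays limits the precision; spot signals are not analysed here.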

Additional observations from a re-analysis of the deposited data

Results flagged for a closer look

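Of 29 sets of 4 array values checked (members, their probes and named pathway genes), 1 had an array far from the other 3, where a nominal count of 1.45 assumes independent values. Map3k7, the gene of the kinase TAK1, lay at 0.48 on array 3 and at -0.76, -0.99 and -0.77 on arrays 1, 2 and 4, so the gap was 0.841 of the whole range.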

How the results depend on the processing

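Of 69 values of member means under other settings, 63 moved by less than the SD over arrays, 5 moved by more and 1 turned. Smad3 turned to 0.03 in the first 6000 rows. In the lower rows, moved, Fstl1 had -0.08 (2 arrays) and Id3 -2.58. Id3 had -1.31 in the first 6000 rows and -0.40 with all rows as deposited, and Atoh8 had -4.38 with arrays centred and scaled. The count of members below 0 on every array (4 of 6) became 1 of 4 in the moved lower rows, where Ltbp3 and Atoh8 have no probe, and 2 (Id3 and Atoh8) when each array was set to 0 at its commonest value, a setting chosen after seeing the data, under which Ltbp3 and Fstl1 no longer counted; leaving out 1 array gave 4 to 6, and centring arrays on their medians gave 3, since Fstl1 then had a value above 0 on array 4. With all rows as deposited the count of members below 0 on every array was 3, since Id3 then had a value above 0 on array 4. Shares of all genes were not counted under these other settings, and the members were chosen on these ratios. Nothing is therefore read from these member counts. Limma called 0 genes under all 14 other settings, with 786 at an unadjusted p under 0.05 in the full fit. Other pathway genes at an unadjusted p under 0.05 (3) became 1 in the moved lower rows (Tsc22d1). They were 5 with all rows as deposited, all lower (Acvrl1, Ccn2, Id2, Inhba and Tgfbr3), and 1 to 4 without 1 array. Without array 1 that count was 1 (Tsc22d1). Where no cause is given, the cause was not tested. Each array's ratio already pairs both lines, and the arrays form 1 group, so no replicate block could be added.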
